A study of Mus musculus with 18 samples.

Results

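The 6 mouse hearts that carried the PLCβ1b vector were compared with the 6 that carried the PLCβ1a vector, which together made 12 of the 18 hearts of the series. Members were chosen by their group label alone. All mice were male C57BL/6, and all ventricles were taken at 17 weeks of age. PLCβ1b hearts came from mice injected through the tail vein with rAAV6-FLAG-PLCβ1b, an adeno-associated virus that delivers a FLAG-tagged PLCβ1b protein. PLCβ1a hearts came from mice given rAAV6-FLAG-PLCβ1a in the same way. The other 6 hearts received rAAV6-blank, whose vector has a promoter and makes no protein. They entered the fit to share its estimate of the spread. No group was uninjected, so exposure to virus was common to all hearts. The labels call the tissue biventricle, while the study's methods describe dissection of the left ventricle, so the sampled chamber is uncertain. The vector reaches the heart from the blood and the hearts still held their own Plcb1 gene, so each PLCβ1b or PLCβ1a heart mixed transgene and endogenous transcript. The question of the comparison was how the transcriptome differed between 2 splice variants of the same enzyme when both vectors made protein.

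Phospholipase C β enzymes sit beneath receptors that couple to Gq, such as the α1-adrenergic, angiotensin and endothelin receptors of the heart. They cut the membrane lipid phosphatidylinositol 4,5-bisphosphate into inositol trisphosphate, which opens calcium stores, and diacylglycerol, which activates protein kinase C. Plcb1 gives rise to PLCβ1a and PLCβ1b by alternative splicing, and both variants keep the catalytic core and the region that binds Gq. They differ in the extreme C-terminus. In the heart PLCβ1b is targeted to the sarcolemma, where the scaffold protein Shank3 is a binding partner, and it depresses contraction when overexpressed, while PLCβ1a does neither.

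Plcb1 occupies chr2:134786164-135475258 on the plus strand of mm10. In the annotation deposited with the data, the PLCβ1a transcript has 32 exons and encodes 1216 residues. The PLCβ1b transcript has 33 exons and encodes 1173 residues. The first 1141 residues are shared, which leaves 75 residues of its own to PLCβ1a and 32 to PLCβ1b. The difference is made by 1 exon of 118 bases, chr2:135399249-135399366, which is exon 32 of the PLCβ1b transcript and is skipped in PLCβ1a. Both own coding tails are shown because they are the only coding sequence in which the variants differ. The capitals mark in-frame proline codons. The PLCβ1b tail is the coding part of exon 32 at chr2:135399249-135399347 and the PLCβ1a tail is the coding part of the last exon at chr2:135472053-135472280, both on the plus strand with the stop codon included.
PLCβ1b: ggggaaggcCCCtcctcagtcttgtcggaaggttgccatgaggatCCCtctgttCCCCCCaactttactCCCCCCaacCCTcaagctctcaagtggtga
PLCβ1a: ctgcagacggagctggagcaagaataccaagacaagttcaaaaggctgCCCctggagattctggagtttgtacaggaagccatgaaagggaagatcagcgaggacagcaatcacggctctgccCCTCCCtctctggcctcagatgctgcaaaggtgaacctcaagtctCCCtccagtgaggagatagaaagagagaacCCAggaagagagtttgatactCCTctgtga
In the PLCβ1b tail 7 of 32 codons (21.9%) were proline codons, against 6 of 75 (8.0%) in the PLCβ1a tail. The variant exon made up 1.66% of the PLCβ1b transcript. The deposited counts are per gene, so reads of PLCβ1a and PLCβ1b, and of vector and endogenous transcript, were counted together.

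Libraries held 13246339 to 24155465 counted reads in PLCβ1a hearts and 16090533 to 22669587 in PLCβ1b hearts. A single mitochondrial rRNA, mt-Rnr2, held 53.5 to 56.1% (PLCβ1a) and 54.5 to 57.5% (PLCβ1b) of these, so that 3908354 to 7591558 and 4826150 to 6943832 reads, respectively, fell on nuclear genes. The 10 ventricular cardiomyocyte markers all passed the expression filter. The root mean square log2 difference between pairs of hearts had a median of 0.307 over the 36 pairs of a PLCβ1b with a PLCβ1a heart. It was 0.312 over the 15 pairs within PLCβ1b and 0.304 over the 15 within PLCβ1a. The ranges of the 3 sets of pairs overlapped. Values per heart are given as CPM, counts divided by the library size after trimmed-mean (TMM) scaling, which compare hearts and not genes. In bulk tissue, fewer cells of a type and less RNA per cell cannot be told apart.

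Plcb1 was the gene that differed most clearly. In PLCβ1b hearts it ranged from 23.1 to 70.0 CPM with a median of 46.2 CPM, and in PLCβ1a hearts from 17.8 to 29.2 CPM with a median of 21.99 CPM. The blank hearts, which make endogenous Plcb1 only, had 6.26 CPM ± 0.541 (SD, n = 6). Of the 6 PLCβ1b hearts, 5 lay above every PLCβ1a heart and the remaining one, heart 8, lay within their range. Total Plcb1 was 2.12-fold higher in PLCβ1b than in PLCβ1a hearts (log2 difference 1.09, standard error 0.168, 95% interval 1.67 to 2.70-fold). Its false discovery rate (FDR, p adjusted by Benjamini-Hochberg across the tested genes) was 0.00918 in edgeR's quasi-likelihood test, and an exact two-sided permutation test of CPM over all 924 arrangements of the 12 hearts gave p = 0.0043 (the smallest this design allows is 0.0022). In the deposited FPKM the levels were 8.28 ± 3.38 in PLCβ1b and 3.86 ± 0.738 in PLCβ1a hearts (SD, n = 6 each), with the same permutation p of 0.0043. The SD was larger in PLCβ1b hearts, in CPM 17.5 against 3.87 in PLCβ1a hearts (n = 6 each). The fit and its interval used 1 estimate of the spread for the 3 groups, so the interval does not reflect this inequality. The call depended on the test: FDR was 0.801 with robust estimation of the gene-wise spread and 0.541 on log2(FPKM + 0.1) in limma, with log2 differences of 1.09 and 0.995. Because the groups differed in total Plcb1 as well as in the variant delivered, the variant and the amount of transcript cannot be told apart in the comparisons that follow.

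**Figure D1:**
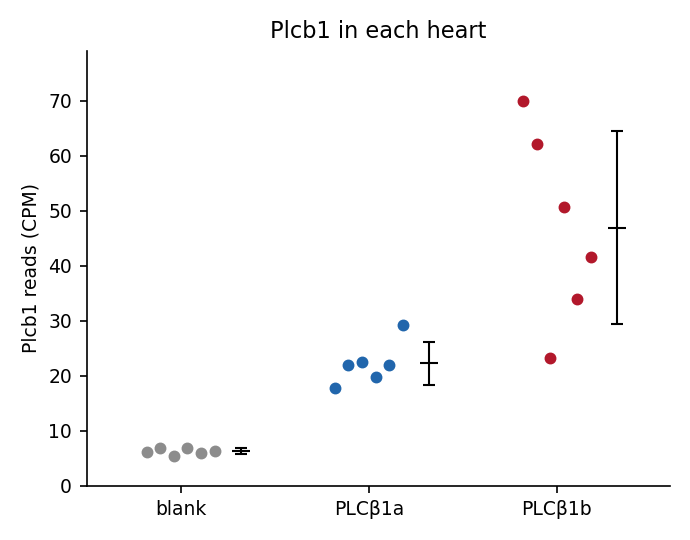
Plcb1 CPM (y axis) for each of the 6 blank, 6 PLCβ1a and 6 PLCβ1b hearts (points), with the mean and SD beside them. PLCβ1b hearts spread from 23.1 to 70.0 CPM and PLCβ1a hearts from 17.8 to 29.2 CPM, all above the blank hearts.

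Beyond Plcb1, the 2 groups were nearly superimposed. Of 12281 genes that passed the expression filter, 1 was called at FDR below 0.1 (0.00814% of those tested). Without adjustment, 560 genes (4.56%) had p under 0.05, and of these 276 were higher in PLCβ1b (2.25% of those tested) and 284 lower (2.31%). DESeq2 and limma voom also called Plcb1 and no other gene, with 369 and 576 genes at an unadjusted p under 0.05. The edgeR exact test called 2 genes, Plcb1 and Rmrp, and the robust fit called 0, with 543 genes at an unadjusted p under 0.05. Only 22 genes (0.179%) had CPM ranges that did not overlap between the groups, 10 higher in PLCβ1b and 12 lower. For any 1 gene, a share of 0.0022 of the 924 arrangements of the 12 hearts leaves no overlap, and the share seen was not above that. The median absolute log2 difference over all genes was 0.061, which is 1.04-fold.

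The hearts set a limit on how large any difference could be. For each gene the 95% interval of the log2 difference was taken from the fit, and its median half-width was 0.185, or 1.14-fold. The interval lay within 2-fold in either direction for 12140 genes (98.9%), within 1.5-fold for 10926 (89.0%), within 1.2-fold for 6372 (51.9%) and within 1.1-fold for 1473. When the intervals were widened to hold for all tested genes together, 77.7% still lay within 2-fold and 48.7% within 1.5-fold. Plcb1 was the single gene whose 95% interval lay wholly beyond 1.5-fold, with the spread shared by 3 groups of unequal Plcb1 SD. Its widened interval, 0.112 to 2.06 on the log2 scale, did not lie wholly beyond 1.5-fold. For 5909 genes the 95% interval reached beyond 1.2-fold. The width varied with read depth. Among the 1229 genes of lowest count (median 13.6 reads per heart) the half-width was 1.42-fold, and 27.5% of them were bounded within 1.5-fold. Among the 1228 genes of highest count (median 1280 reads) the half-width was 1.07-fold, and 95.9% of them were bounded within 1.2-fold. Of the 45 genes whose estimate exceeded 1.5-fold, 38 had a mean below 50 reads.

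**Figure D2:**
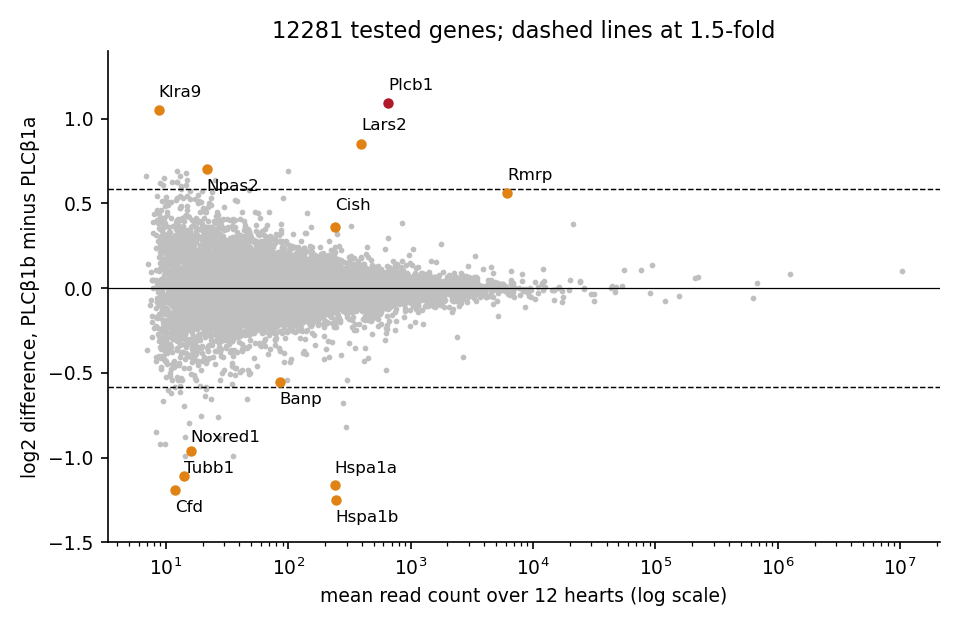
Log2 difference of PLCβ1b minus PLCβ1a hearts (y axis) against the mean read count over the 12 hearts (x axis, log scale) for 12281 genes. Plcb1 (red) was the called gene, named genes that were not called are orange, and most of the 45 genes beyond the dashed 1.5-fold lines had few reads.

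**Figure D3:**
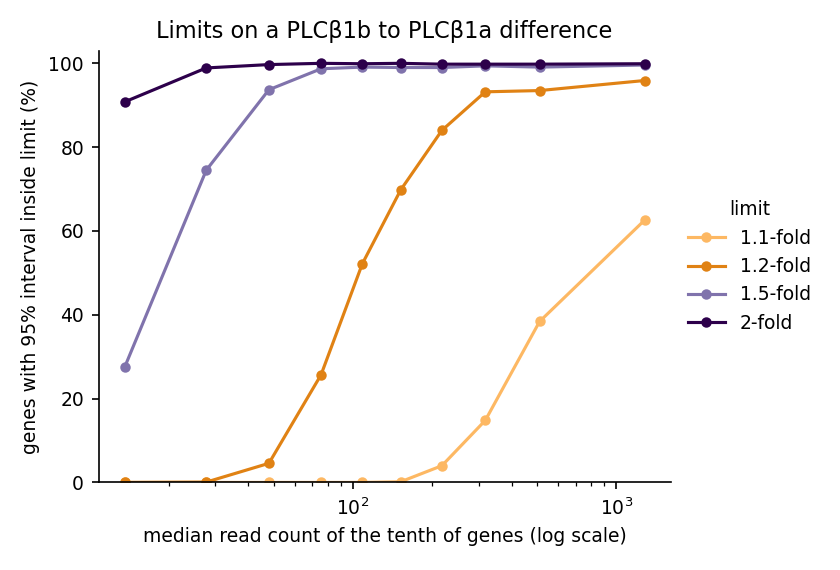
Percent of genes whose 95% interval lay inside 1.1, 1.2, 1.5 or 2-fold (y axis) in 10 bins of the tested genes ordered by count, placed at the median read count of the bin (x axis, log scale). The share inside 1.2-fold went from 0% in the lowest bin to 95.9% in the highest.

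The 10 genes with the lowest p in the direction of higher expression in PLCβ1b were led, after Plcb1, by short non-coding RNAs. None of them other than Plcb1 was called. Rmrp, the RNA of the RNase MRP ribonucleoprotein (chr4:43492785-43493059, minus strand), had 310.0 to 504.1 CPM in PLCβ1b hearts (median 380) and 223.0 to 297.1 CPM in PLCβ1a hearts (median 270), with no overlap. The difference was 1.47-fold (interval 1.27 to 1.72) with FDR 0.111 in the edgeR quasi-likelihood fit, outside the threshold of 0.1, and it was called in 10 of the 30 other settings. Rnu12, the U12 RNA of the minor spliceosome (chr15:83149645-83149794, plus strand), was at 17.2 to 22.4 CPM against 13.2 to 19.8 CPM, 1.29-fold (interval 1.14 to 1.45, FDR 0.687), and 3 of 6 PLCβ1b hearts exceeded every PLCβ1a heart. Rn45s, the ribosomal RNA precursor, was looked at because the libraries were depleted of ribosomal RNA, after its values were seen. It had 762 to 2277 CPM in PLCβ1b hearts (median 1034) and 802.0 to 1240 CPM in PLCβ1a hearts (median 890), a log2 difference of 0.38 (FDR of 1). Its highest values were in PLCβ1b hearts 17 and 4. Rmrp was highest of its group in heart 4 and lowest in heart 17, while Rnu12 was highest in heart 17. In PLCβ1a hearts Rn45s and Rmrp were highest in heart 21, and Rnu12 was highest in heart 14. The part of ribosomal RNA depletion in the Rmrp and Rnu12 values was not tested.

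The other 7 of these 10 genes differed by 1.15 to 1.56-fold. Srrm4, a splicing regulator best known for neuronal microexons, had 4.71 to 6.50 CPM in PLCβ1b against 3.78 to 4.45 CPM in PLCβ1a hearts, without overlap, at 1.3-fold (FDR 0.789). Exons of Srrm4 overlap 2410137F16Rik on the other strand, and the counting used strand. Zmiz2, a transcriptional coactivator of the PIAS-like family, was at 9.95 to 11.05 against 7.91 to 9.51 CPM (1.18-fold, FDR 0.858), again without overlap. Cish, an inhibitor of cytokine signalling and a target of STAT5, was at 13.2 to 16.8 against 9.64 to 13.03 CPM (1.28-fold, FDR 0.858). All 6 PLCβ1b hearts exceeded the PLCβ1a hearts for each of these 3 genes. Rrad, a small GTPase that restrains L-type calcium channels, had medians of 49.6 and 37.4 CPM (1.3-fold, interval 1.13 to 1.51). PLCβ1a heart 13 lay at 52.0 CPM for Rrad, inside the PLCβ1b range. Thsd1, a thrombospondin-repeat membrane protein, had medians of 3.64 and 2.72 CPM, and Ankrd33b, an ankyrin-repeat protein, 24.2 and 21.2 CPM. The predicted gene Gm3646 did not overlap between groups, at 1.45 to 2.05 against 0.72 to 1.23 CPM, on as few as 9 reads in a heart.

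The 10 lowest-p genes in the other direction had FDR values of 0.789 to 0.959. Banp, a nuclear matrix and chromatin protein, was at 2.67 to 5.15 CPM in PLCβ1b hearts (median 3.67) and 4.46 to 6.78 CPM in PLCβ1a hearts (median 5.48). Of the 6 PLCβ1b hearts, 5 lay below all PLCβ1a hearts, with a ratio of 0.683 (interval 0.564 to 0.826, FDR 0.789). Nfat5, the transcription factor of the osmotic stress response, did not overlap, at 30.1 to 33.99 against 34.1 to 37.6 CPM, although the ratio was 0.894 (interval 0.842 to 0.948). Slc5a3, the sodium/myo-inositol cotransporter and a known target of NFAT5, had medians of 13.2 and 17.6 CPM, a ratio of 0.686 (interval 0.555 to 0.849). Slc5a3 shares exon sequence with Mrps6 on the same strand, so its reads are uncertain, and Mrps6 itself had a log2 difference of -0.16. Other NFAT5 targets, looked up after these values were seen, were at 0.05 (the taurine transporter Slc6a6) and -0.11 (the amino acid transporter Slc38a2), with FDR of 1 for both. Dpf3, a histone reader of the BAF chromatin remodelling complex in muscle, did not overlap either, at 4.204 to 5.274 against 5.46 to 6.17 CPM, a ratio of 0.835.

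Chd6, a chromodomain helicase, had 39.9 to 49.0 CPM in PLCβ1b and 48.6 to 50.6 CPM in PLCβ1a hearts, with 5 of 6 PLCβ1b hearts below the PLCβ1a range (ratio 0.890). Arid2, a subunit of the PBAF remodelling complex, had medians of 22.2 and 25.8 CPM (ratio 0.890), and the zinc finger gene Zfp445 had 48.2 and 57.2 CPM (ratio 0.856). For each of those, 4 of the 6 PLCβ1b hearts were below all PLCβ1a hearts. Tmem237, a protein of the ciliary transition zone, Noxred1 and the ubiquitin ligase gene Rnf122 were low in counts. Their medians were 0.71 against 1.36, 0.587 against 1.005, and 1.605 against 2.403 CPM.

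**Figure D4:**
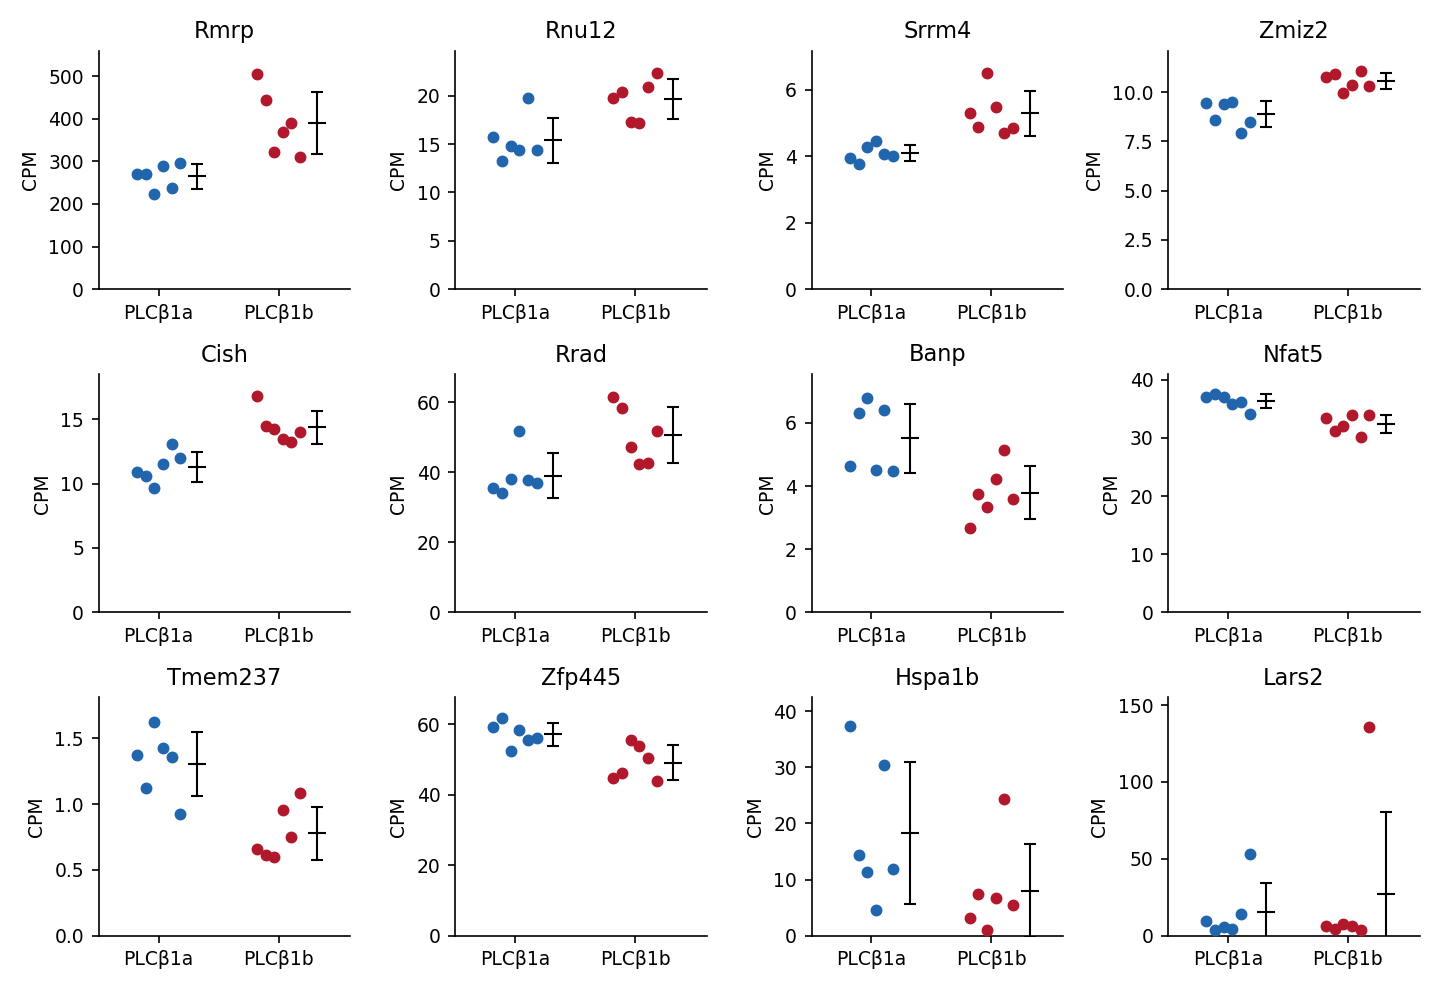
CPM (y axis, from 0) in each of the 6 PLCβ1a and 6 PLCβ1b hearts (points), with the mean and SD, for the 6 genes of lowest p after Plcb1 that were higher in PLCβ1b, the 4 of lowest p that were lower, and Hspa1b and Lars2, in which single hearts stood apart. SD bars that reach below 0 are cut at the axis. Rmrp, Srrm4, Zmiz2, Cish and Nfat5 do not overlap, while in Lars2 PLCβ1b heart 17 stands at 136 CPM.

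The largest fold differences were found in genes whose hearts varied widely, and apart from Plcb1 none was called. Hspa1b and Hspa1a, near-identical genes of the inducible heat shock protein HSP70 whose reads may be shared, had log2 differences of -1.25 and -1.16 (FDR of 1 for both). Hspa1b ranged from 1.05 to 24.4 CPM in PLCβ1b hearts and from 4.51 to 37.5 CPM in PLCβ1a hearts. The ranges overlapped, and the highest PLCβ1b value came from heart 16, with the others at 7.43 CPM or less. Cfd, the adipocyte protease adipsin, had a log2 difference of -1.19 on 2 to 43 reads, and PLCβ1a heart 21 was highest at 2.21 CPM. The platelet genes Tubb1 and Ppbp had log2 differences of -1.11 and -0.99, with PLCβ1a hearts 7 and 9 highest for both (2.095 and 1.531 CPM for Tubb1, 5.84 and 4.13 CPM for Ppbp). Another platelet gene, Pf4, looked up after these values were seen, stood at -0.01 and Itga2b at -0.80, with FDR of 1 for both.

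In the other direction, Klra9, a natural killer cell receptor, had a log2 difference of 1.05 on 0 to 24 reads. Lars2, the mitochondrial leucyl-tRNA synthetase, had 0.85 (standard error 0.696), and -1.39 without PLCβ1b heart 17. PLCβ1b heart 17 held 136 CPM of Lars2 and PLCβ1a heart 21 held 53.0 CPM, while the other hearts of the groups lay at 3.70 to 7.70 and 3.73 to 14.3 CPM. The same hearts were the highest of their groups for Rn45s, at 2277 and 1240 CPM. Npas2, a clock transcription factor, had medians of 1.41 and 0.89 CPM (log2 difference 0.70), and Polm, DNA polymerase μ, 0.80 and 0.52 CPM (0.69). For both, 4 of the 6 PLCβ1b hearts exceeded the PLCβ1a range, with FDR of 1 and 0.959.

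The pathway of the delivered enzyme held no further called gene. In the lists for phospholipase C enzymes, Gq signalling, downstream signalling and scaffolds, 86 tested genes other than Plcb1 included 0 at an unadjusted p under 0.05, against 4.56% of all genes, and Dlg2 came nearest to that level. Intervals were inside 1.5-fold for 77 of the 86 and inside 2-fold for 85. Among receptors, Adra1a and Adra1b, which encode the α1-adrenergic receptors of cardiomyocytes, had log2 differences of -0.02 (interval -0.16 to 0.12) and -0.16 (interval -0.34 to 0.01). The angiotensin receptor gene Agtr1a was at -0.17 and the endothelin receptor genes Ednra and Ednrb at -0.01 and -0.07. Tbxa2r, the thromboxane receptor, had an interval that reached 2.17-fold on less than 1 CPM. The Gq α subunits Gnaq and Gna11 differed by -0.02 and 0.01, both bounded within 1.2-fold.

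Of 15 phospholipase C genes listed, 11 were tested, and besides Plcb1 they ran from -0.07 for Plcg2 to 0.21 for Plcb2. Plcb3 and Plcb4, the closest relatives with appreciable reads, had 9.09 ± 0.769 and 30.6 ± 1.59 CPM in PLCβ1b hearts and 9.59 ± 1.2 and 28.99 ± 3.0 CPM in PLCβ1a hearts (SD, n = 6). Their intervals were -0.23 to 0.10 and -0.04 to 0.21. RGS proteins, which speed the inactivation of Gq, ran from -0.13 for Rgs2 to 0.13 for Rgs12, and the regulators Grk5, Adrbk1, Ric8 and Ric8b from 0.00 to 0.05.

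Downstream of the enzyme, the 3 inositol trisphosphate receptor genes Itpr1, Itpr2 and Itpr3 differed by -0.03, -0.05 and 0.07. The 12 protein kinase C and protein kinase D genes ran from -0.14 for Prkcd to 0.37 for Prkcz. Prkca, an abundant isoform of cardiomyocytes, was at 16.2 ± 1.80 and 16.6 ± 1.11 CPM, with an interval of -0.17 to 0.10. Diacylglycerol kinases, which remove the second messenger, ran from -0.07 for Dgkh to 0.36 for Dgkb. The 12 genes that supply phosphoinositide substrate were all bounded within 1.5-fold. Shank3, the scaffold of PLCβ1b, was at 26.1 ± 2.55 CPM in PLCβ1b and 26.2 ± 2.91 CPM in PLCβ1a hearts (interval -0.145 to 0.128), and Homer1, a partner of Shank proteins, at 34.9 ± 4.07 and 35.1 ± 4.73 CPM. Dlg2 and Dlg4, encoding further synaptic-type scaffolds, had 0.42 and 0.30 on less than 2 CPM.

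Genes of calcium handling and contraction, the processes that the 2 variants are known to affect differently, were mostly close to equal. At an unadjusted p under 0.05, 2 of 54 tested calcium and excitation genes were higher in PLCβ1b and 3 lower. Over all genes the shares were 2.25% and 2.31%. Of the 54 genes 0 were called, 50 were bounded within 1.5-fold, and the interval of Sln reached 2.84-fold. The list median was -0.0034 beside 0.00088 for all genes. Cacnb2, the β2 subunit of the L-type calcium channel, was at 35.9 ± 1.17 CPM in PLCβ1b and 40.2 ± 2.81 CPM in PLCβ1a hearts, with no overlap of the ranges (log2 difference -0.16, FDR 0.959). Sln, encoding the atrial calcium pump inhibitor sarcolipin, had -0.89 on medians of 1.082 and 1.734 CPM, Casq1, the skeletal calsequestrin, -0.46, Trpc1 0.27 and Ppp3r1, the regulatory subunit of calcineurin, 0.10. The central genes were tightly bounded. Atp2a2, the calcium pump SERCA2, had 4565 to 4939 CPM in PLCβ1b (median 4740) and 4501 to 5171 CPM in PLCβ1a hearts (median 4809), with an interval of 0.927 to 1.04-fold. Pln, its inhibitor phospholamban, had an interval of 0.949 to 1.06-fold, Cacna1c, the pore of the L-type channel, 0.917 to 1.04-fold, and Ryr2, the calcium release channel, -0.17 to 0.02 on the log2 scale.

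The cAMP pathway, which drives contraction through protein kinase A, gave 1 of 30 tested genes at an unadjusted p under 0.05 (4.56% of all genes). That gene was Pde3b, a phosphodiesterase, at 4.56 ± 1.02 and 5.49 ± 0.537 CPM (log2 difference -0.29). The β1-adrenergic receptor gene Adrb1 was at -0.04 (interval -0.25 to 0.17), and all 30 genes were bounded within 1.5-fold. Of 41 sarcomere genes 0 reached an unadjusted p under 0.05, and 38 were bounded within 1.5-fold. The other 3 were Mybphl, Myl4 and Myl7, genes of atrial muscle. Of 34 potassium, sodium and gap junction channel genes, which shape the action potential and its spread, 0 reached it, and 29 were bounded within 1.5-fold.

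Hypertrophy and fibrosis markers likewise gave no called gene. Myh6, the adult α-myosin heavy chain, had 7921 to 8848 CPM in PLCβ1b (median 8158) and 7949 to 8929 CPM in PLCβ1a hearts (median 8505), bounded to 0.914 to 1.03-fold. Myh7, the fetal β-myosin, spread in the counts from 22.6 to 81.1 and from 22.2 to 68.7 CPM, with an interval of 0.680 to 1.42-fold. The deposited FPKM of Myh7 spread less, with PLCβ1b hearts at 81.2 to 92.0 and PLCβ1a hearts at 80.5 to 114.6. Exons of Myh7 overlap D830015G02Rik on the other strand, and the counting used strand. The cause of the spread of the Myh7 counts was not tested. Nppa, atrial natriuretic peptide, had medians of 26.9 and 27.9 CPM (interval 0.904 to 1.31-fold), and Nppb, B-type natriuretic peptide, 35.05 and 29.4 CPM (0.918 to 1.64-fold). For Nppb 5 PLCβ1a hearts lay at 27.8 to 30.8 CPM and heart 14 at 45.2 CPM. Acta1, the skeletal actin, had an interval of 0.793 to 1.26-fold, and Actc1, the cardiac actin, a log2 interval of -0.09 to 0.11. Hdac5, a repressor of hypertrophic genes, was the member of the 27 tested at an unadjusted p under 0.05 (log2 difference 0.13). Of 40 collagen and fibrosis genes 0 reached it and 39 were bounded within 1.5-fold, among them Col1a1 (0.11) and Col3a1 (0.02).

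Of 37 endoplasmic reticulum stress and heat shock genes, 5 were lower in PLCβ1b at an unadjusted p under 0.05 and 0 higher (2.31% and 2.25% of all genes). The 5 were the cytosolic heat shock genes Hspa1a, Hspa1b, Dnajb1 and Dnaja1 and the mitochondrial co-chaperonin gene Hspe1. Dnajb1, a partner of HSP70, was at 11.7 ± 5.10 and 18.2 ± 7.38 CPM (log2 difference -0.68) and Dnaja1 at 16.5 ± 4.73 and 20.8 ± 5.25 CPM. Only 2 of the 6 PLCβ1b hearts lay below the PLCβ1a range for Hspa1a, Hspa1b, Dnajb1 and Dnaja1. The endoplasmic reticulum chaperone gene Hspa5 was at -0.05 and Herpud1, of endoplasmic reticulum quality control, at 0.05. The list ran from -1.25 for Hspa1b to 0.315 for Trib3. The list median was -0.05, and -0.08 to -0.02 with each heart left out in turn.

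Immediate early genes, the fast transcriptional response to stimulation and handling, gave 18 of 23 genes below 0, with Egr1 at -0.82 and 0 at an unadjusted p under 0.05. Their median was -0.16, and it was 0.13 without PLCβ1a heart 7, which also had the highest Hspa1b value. Only 10 of the 23 were bounded within 1.5-fold, since the median half-width was 1.33-fold. Glucocorticoid response genes had 13 of 15 below 0, with a median of -0.07, and -0.146 to -0.001 with each heart left out in turn. Of all tested genes, 50.5% were above 0, and genes of 1 heart are not independent. Of the 15 glucocorticoid response genes, 0 reached an unadjusted p under 0.05. Of 18 clock genes, Npas2 was higher and Bhlhe40, a repressor, lower (-0.23) at that level. Interferon response genes, which can answer viral vectors, gave 1 of 35 at that level, Gbp7 (0.14). In the list of STAT5 and SOCS genes, 0 of 15 were called and 3 were higher at an unadjusted p under 0.05, namely Cish, the transcriptional repressor gene Bcl6 (0.36) and the kinase gene Pim1 (0.32), and 0 were lower (2.25% and 2.31% of all genes).

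Nuclear-encoded oxidative phosphorylation genes gave 59 of 80 above 0 with a median of 0.02, and 79 of 80 were bounded within 1.5-fold. Of all tested genes, 50.5% were above 0. Ndufc1 and Ndufa6, subunits of complex I, were at 0.10 and 0.09. Fatty acid oxidation genes gave 27 of 37 below 0 with a median of -0.02, and the fatty acid transporter gene Slc27a1 was at -0.20. In glucose use, Pfkfb2, the cardiac 6-phosphofructo-2-kinase that stimulates glycolysis, was at 103.4 ± 9.93 and 86.3 ± 7.65 CPM (0.26), where 5 of 6 PLCβ1b hearts exceeded the PLCβ1a range, and Pdhb at 0.07. Pdk4, the inhibitor of pyruvate dehydrogenase, was at -0.41 with an interval of -1.01 to 0.19. Of 11 tested mitochondrially encoded messengers, mt-Atp6 was at 0.64 on only 7 to 22 reads, while its deposited FPKM was 23490 ± 1540 and 22560 ± 1850 (SD, n = 6 each). The list median was 0.10 beside 0.10 for mt-Rnr2, and 7 of the 11 were bounded within 1.5-fold.

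Ribosomal protein genes were split in direction. At an unadjusted p under 0.05, 2.25% of all genes were higher in PLCβ1b and 2.31% lower. Mitochondrial ribosomal proteins gave 3 higher (Mrpl34, Mrps7 and Mrpl2) and 1 lower (Mrpl39) of 75 at an unadjusted p under 0.05, with log2 differences from -0.18 to 0.21. Cytosolic ribosomal proteins gave 1 higher (Rpl35a) and 3 lower (Rpl7a, Rpl5 and Rpl7l1) of 70 at that level, and reads of this family can be split with processed pseudogenes. Among cardiac transcription factors and chromatin genes, 1 of 34 was higher at that level, Nkx2-5, a core cardiac factor (0.17). Lower were 3, Banp, Chd6 and Zfpm2, the GATA4 cofactor (-0.18). The splicing regulators gave Srrm4 higher and Ptbp2, a neuronal repressor of exons, lower (-0.16) of 23 at the same level. Over the 806 different genes of these 25 lists, 40 (4.96%) reached an unadjusted p under 0.05, against 4.56% of all tested genes, and 722 (89.6%) were bounded within 1.5-fold. The lists include the 15 genes of the study, 4 of them at that level. Those were chosen on the same PLCβ1b and PLCβ1a hearts, so nothing is read from the 2 shares. The lowest FDR of any list member other than Plcb1 was 0.789.

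**Figure D5:**
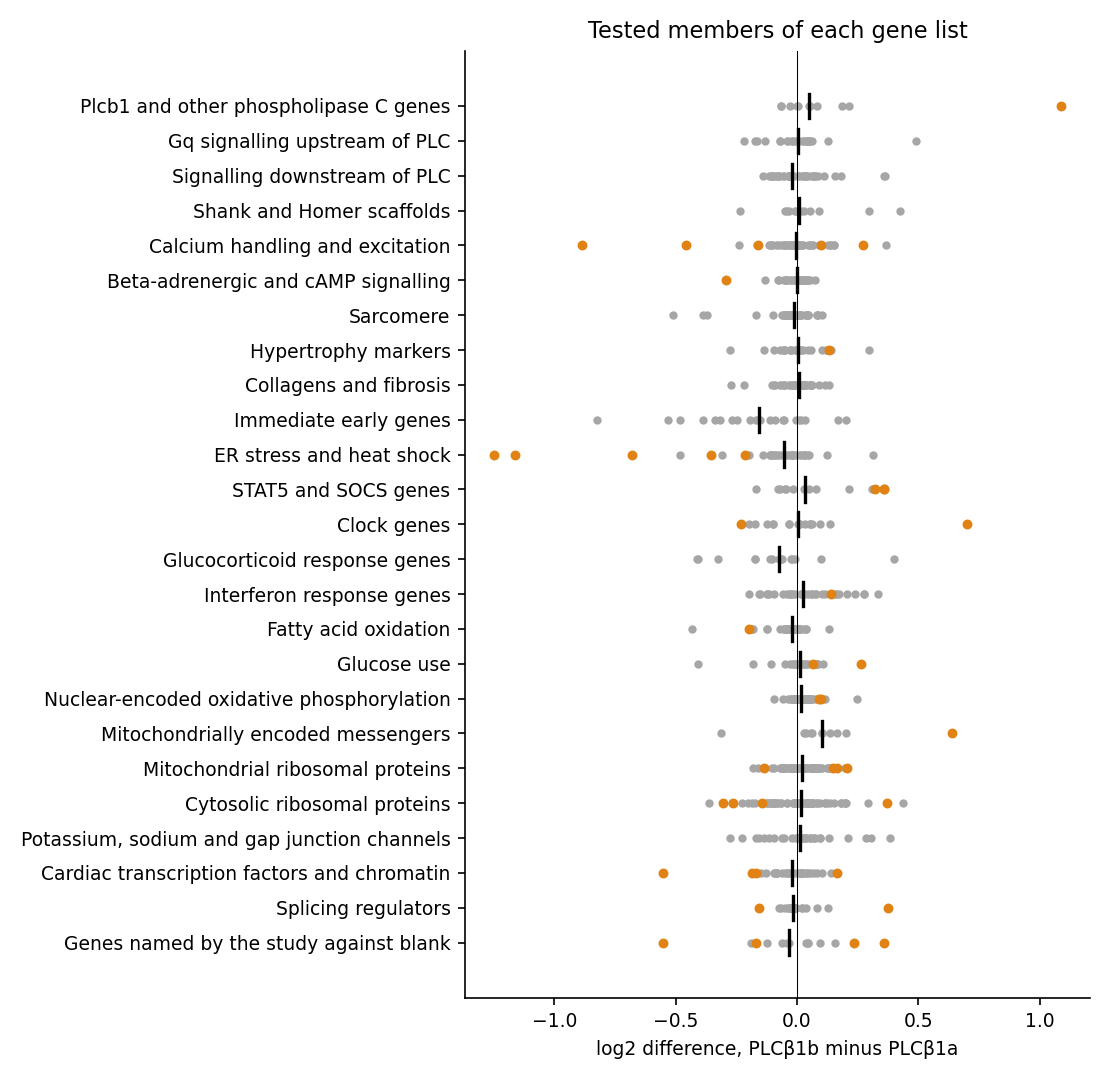
Log2 difference of PLCβ1b minus PLCβ1a hearts (x axis) for each tested member (points) of 25 gene lists (y axis), with the list median as a black bar and members at an unadjusted p under 0.05 in orange. Medians lie near 0, from -0.16 for immediate early genes to 0.10 for mitochondrially encoded messengers, and Plcb1 is the far point at 1.09.

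Cell type markers moved little. The summed CPM of the 10 ventricular cardiomyocyte markers was 20960 to 22130 in PLCβ1b and 21000 to 22370 in PLCβ1a hearts. Fibroblast markers gave 805 to 887 and 784 to 875 CPM, endothelial markers 464 to 525 and 456 to 506 CPM, and macrophage and leukocyte markers 128 to 184 and 127 to 168 CPM. The ranges overlapped for all 13 cell types. Endocardial markers had medians of 21.5 and 17.6 CPM. Of the 4 endocardial genes 2 were above 0, Npr3, the natriuretic peptide clearance receptor, at 0.25 and Cytl1 at 0.27. The other 2 were below 0, the lowest being Plvap at -0.09. Endothelial Lmo2 was at 0.24 and Cldn5 at -0.44.

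Of 9 tested atrial markers, 8 were below 0 (median -0.19), Bmp10 was below the filter, and the sums were 87.9 to 107.7 and 71.8 to 120.4 CPM. Of all 12281 tested genes, 6085 were below 0. The part of atrial tissue in the Sln, Myl4, Myl7 and Mybphl values was not tested. Of 8 adipocyte markers only Cfd and Car3 passed the filter, both below 0, with Adipoq, Plin1 and Lep below it, and their sum was 0.56 to 2.60 and 0.87 to 6.825 CPM. Erythrocyte Alas2 and Slc4a1 were at -0.41 and -0.66, and Beta-s, the adult β-globin gene, singled out after its values were seen, had 84.6 to 160.8 and 111.5 to 182.8 CPM (-0.29). Smooth muscle and pericyte markers had 8 of 10 above 0, from -0.08 for Cnn1 to 0.12 for Pdgfrb. Mesothelial and valve markers had 2 of 5 above 0 and 3 below, from -0.31 for Upk3b to 0.31 for Chad. Skeletal muscle markers were represented by Ckm alone (0.03), and conduction markers had a median of 0.00.

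Genes that the study singled out against blank, or that were called here against blank, gave a last view. These contrasts share the blank hearts and chose the genes, so their values are a description. PLCβ1b against blank gave 12 called genes (0.0977%) and PLCβ1a against blank gave 10 (0.0814%), of which 3 were called in both. Without Plcb1, 18 genes were called in either. Between PLCβ1b and PLCβ1a 0 of the 18 were called, and for 17 the interval was inside 1.5-fold. An unadjusted p under 0.05 was reached by 8 of the 18 and by 4.56% of all genes, but these genes were chosen on the same PLCβ1b and PLCβ1a hearts, so nothing is read from that count.

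Individual genes of that set differed in which variant lay nearer to blank. Cish was at 20.25 CPM ± 3.18 in blank hearts, 14.4 ± 1.28 in PLCβ1b and 11.3 ± 1.17 in PLCβ1a hearts (SD, n = 6 each). Its log2 differences from blank were -0.48 and -0.84. Banp was at -0.70 from blank in PLCβ1b and -0.15 in PLCβ1a hearts, and Chd6 at -0.31 and -0.14. Pcdh17, a protocadherin, was at 0.46 and 0.23, with 4 of 6 PLCβ1b hearts above the PLCβ1a range (log2 difference 0.23). The other 11 genes of the study had unadjusted p values above 0.05 between PLCβ1b and PLCβ1a. For Arhgap18, a GTPase-activating protein, the differences from blank were 0.38 and 0.34, for Mcf2l, a guanine nucleotide exchange factor, -0.44 and -0.38, for Prox1, a homeobox factor, 0.28 and 0.24, and for Herpud1, of endoplasmic reticulum quality control, -0.20 and -0.25. Cacna1c was at 0.18 and 0.22, Irx3, a homeobox factor, at 0.45 and 0.49, and 2810055G20Rik at 0.45 and 0.35. Eml5, Cecr2 and Myo5c were farther from blank in PLCβ1a hearts (0.47, 0.43 and 0.47) than in PLCβ1b hearts (0.35, 0.26 and 0.29), with differences between the variants of -0.12, -0.17 and -0.19. Ccdc88c was at 0.44 and 0.28.

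The genes called against blank that the study did not list were 7. Zbtb16, a glucocorticoid-inducible zinc finger gene, was at -0.64 and -0.53 from blank, and Tmem245 at 0.19 and 0.18. Mrpl34 and Mrpl18, proteins of the mitochondrial ribosome, were at -0.12 and -0.32, and at -0.14 and -0.23. Lmo2 was at 0.37 and 0.13, Srrm4 at 0.45 and 0.07, and Zfp667 at 0.29 and 0.56. Between the variants, Mrpl34 and Lmo2 were at 0.21 and 0.24, Zfp667 at -0.27 and Zbtb16 at -0.11, each with FDR of 0.959 or more.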

How the data were processed

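RNA was sequenced from 18 hearts as rRNA-depleted, strand-specific, paired-end libraries. The authors aligned the reads to mm10 with TopHat (TopHat2 2.0.10 and Cufflinks 2.1 in the submitters' processing notes) and deposited read counts per gene from HTSeq in union mode, and FPKM per gene. The count table was the main input and the FPKM table an alternative. Entries whose names a spreadsheet had turned into dates (27, with 0.0442% of counts) kept their rows. Mitochondrial genes were named through the deposited annotation, which also gave gene positions and the exons of the Plcb1 transcripts. The vector cDNA's species is not given in the sources used here.

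Counts of all 18 hearts (13246339 to 24155465 per PLCβ1a or PLCβ1b heart) were scaled by TMM and filtered by filterByExpr (minimum count 10, minimum total 15) in edgeR 4.0.16 (R 4.3.3). One quasi-likelihood model of the 3 groups gave the contrast PLCβ1b minus PLCβ1a, with Benjamini-Hochberg adjustment over 12281 genes and a call at FDR below 0.1. Intervals at 95% used the model's standard error and 26.1 degrees of freedom. They bound the difference between the groups given the spread between these hearts, and not the range of single hearts. CPM denotes TMM-scaled values. Alternatives were DESeq2 1.42.0, edgeR's exact test, limma voom (limma 3.58.1), RLE and upper-quartile scaling, no filter, only the 12 hearts, limma on log2(FPKM + 0.1) and log2(FPKM + 1) where the mean reached 1 FPKM, no mitochondrial genes, 1 surrogate variable (sva 3.50.0), each heart left out, and, chosen after the data were seen, a robust quasi-likelihood fit. The steps were tested on simulated data.

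Replicates are single mice, with no numbers shared between groups. Named genes were Plcb1, the 15 genes the study lists and its 8 markers, the 10 lowest p in each direction, the 5 largest differences in each direction, list members at an unadjusted p under 0.05 (at most 5 a list), pathway members, and genes called against blank. The comparison, lists and named genes were chosen with earlier results of these data known. Lists are described by counts and medians and were not tested. Gene sequences came from GENCODE vM21 transcripts. Reads could not be assigned to a splice variant from gene counts. Values of 2 list members are not reported here.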

Additional observations from a re-analysis of the deposited data

Results flagged for a closer look

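For the genes described heart by heart, a single heart was set apart when its gap to the nearest other heart of the group, as a share of the group's range, exceeded Dixon's critical value for 6 hearts at 95%. This marked 9 of 114 gene and group combinations (7.89%). Chance alone marks about 1 in 20 groups, but some of these genes were chosen for large or low-p differences and genes of 1 heart are not independent, so the share cannot be set against that rate. Lars2 was marked in both groups, in PLCβ1b heart 17 at 136 CPM against 3.70 to 7.70 CPM and in PLCβ1a heart 21 at 53.0 CPM against 3.73 to 14.3 CPM. PLCβ1a heart 21 was also marked for Cfd, at 2.21 CPM against 0.33 to 0.841 CPM. PLCβ1b heart 16 was marked for Hspa1b, at 24.4 CPM against 1.05 to 7.43 CPM. In PLCβ1b hearts, Cish in heart 4 was at 16.8 CPM against 13.2 to 14.5 CPM and Gm3646 in heart 6 at 2.05 CPM against 1.45 to 1.66 CPM. In PLCβ1a hearts, Nppb in heart 14 was at 45.2 CPM against 27.8 to 30.8 CPM, Rrad in heart 13 at 52.0 CPM against 34.1 to 38.1 CPM, and Noxred1 in heart 7 at 1.93 CPM against 0.673 to 1.12 CPM.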

How the results depend on the processing

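At FDR below 0.1 the count of genes was 1, and it was 2 with the edgeR exact test, no filter, only the 12 PLCβ1b and PLCβ1a hearts, mitochondrial genes left out or 1 surrogate variable, where Rmrp joined Plcb1. It was 0 with the robust quasi-likelihood fit, chosen after the data were seen, and 560 genes passed at an unadjusted p under 0.05. With 1 heart left out it was 1 to 2: leaving out PLCβ1b heart 8 or 17, or one of blank hearts 26, 30 and 32, added Rmrp, and leaving out PLCβ1a heart 14 added Rnu12. On FPKM the 1 gene called was Rnu12. The Plcb1 log2 difference was 1.09. It was no longer past the threshold at 0.995 and 0.861 on log2(FPKM + 0.1) and log2(FPKM + 1), and at 1.09 in the robust fit (FDR 0.541, 0.633 and 0.801). It was 0.931 to 1.23 with 1 heart left out, always called. The cause of the lost calls was not tested. The share of genes bounded within 1.5-fold was 89.0%, and it was 86.8% with DESeq2 standard errors, 56.3% with no filter, 90.5% with only the 12 hearts, 48.7% with widened intervals and 86.3 to 88.6% with 1 heart left out. Of 56 other named genes, 47 kept the sign of their difference in every one of the 30 settings that tested them, as did the medians of 21 of 38 lists. No paired analysis was possible because the groups share no replicate numbers. Intervals were wider for genes with fewer counts.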
